A study of Mus musculus with 2 samples.

Results

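The 35 genes described here code for collagen chains, other proteins of the extracellular matrix and enzymes that build collagen, out of 31053 genes in the count table. They were taken as a list of gene symbols, all of which were found in the files. The cells came from fibrosarcomas, tumours of connective tissue type, grown under the skin of wild-type C57BL/6 mice from tissue of the same inbred strain. The study set out to compare tumours of mice that received autologous red blood cells in saline with those of mice that received saline alone. It holds 2 droplet libraries, 1 titled Control and 1 titled Blood. The treatment label of each goes against its title, since the library titled Control is labelled as erythrocyte injected and the one titled Blood as PBS injected, so libraries are called by title here and no direction is assigned to the treatment. Each group has a single library and no test could be made, and every interval in brackets is a 95% interval of counting error alone. Age, sex, the tumour line, the number of animals and whether tumours were pooled were not stated in the labels. Tumour cells and the host's fibroblasts cannot be told apart from these labels, since the implanted cells carry no label in the files and both belong to the connective tissue lineage.

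The extracellular matrix is the network of secreted proteins around cells. Fibrillar collagens assemble into fibres, basement membrane collagens form sheets under endothelium and epithelium, and glycoproteins and proteoglycans bind to both. Collagen chains are folded in the endoplasmic reticulum with the chaperone coded by Serpinh1, hydroxylated by lysyl hydroxylases of the Plod family and cross-linked outside the cell by lysyl oxidases of the Lox family. In tumours the matrix is laid down mostly by fibroblasts, by tumour cells of mesenchymal origin and by blood vessel cells, while macrophages take up and remodel it and secrete fibronectin.

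After filters on depth, mitochondrial share and doublets 8828 cells remained in the library titled Control and 11316 in that titled Blood, with median depths of 9246.5 and 6563 UMIs (unique molecular identifiers, each standing for 1 captured mRNA). The files share 349 barcodes between the libraries. Cells that carried mesenchymal markers fell into a class of high depth and a class of low depth. Neither the 35 genes nor the further matrix lists described later were among the genes used to cluster the cells. The markers that named the clusters held none of the 35 genes, but did hold Ddr2 (mesenchymal) and Mrc1 (macrophage) of the further lists. The high-UMI mesenchymal-like class held 101 and 53 cells, the library titled Control first as in all pairs of values below, with medians of 51165 and 59612 UMIs. It had UMIs of all 20 mesenchymal markers, and their summed level was 3223 and 3105 CPM (counts per 1e+06 UMIs of the class), against 101 and 81.1 CPM in macrophage-like cells. Macrophage markers summed to 1308 and 2114 CPM in it, against 27206 and 25728 CPM in macrophage-like cells. The low-UMI class held 156 and 160 cells with medians of 2082 and 1389 UMIs. It is called low-UMI collagen-positive below and given no cell type name, since it mixed cells with mesenchymal, endothelial, epithelial and macrophage markers. Neutrophil-like cells, 129 and 1770, differed most in number between the libraries, and the share of high-UMI mesenchymal-like cells was 1.14% [0.933 to 1.39] and 0.468% [0.351 to 0.612] of all kept cells.

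The RNA of these genes was concentrated in few cells. The 35 genes took 1.6% and 1.4% of all UMIs in the high-UMI mesenchymal-like class, 0.518% and 0.768% in the low-UMI class and 0.0685% and 0.0895% in macrophage-like cells. The collagen-positive classes, high and low together, held 58.7% [58.4 to 58.9] of the genes' UMIs in the library titled Control and 38.4% [38.1 to 38.6] in the library titled Blood. Macrophage-like cells, 5003 and 5222 cells, held 34.2% and 50%. The share in a class depends on how many of its cells were captured as well as on the RNA in each.

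Most of the RNA counted in macrophage-like cells came from a handful of genes. Of all Fn1 UMIs, 79% and 79.5% were read in macrophage-like cells and 6.01% and 3.35% in collagen-positive cells. For Plod1, which codes for a lysyl hydroxylase, macrophage-like cells held 79.8% and 80.6% of the UMIs, and for Col14a1, a fibril-associated collagen, 85.2% and 87.8%. Vcan, which codes for the large proteoglycan versican, was spread over collagen-positive cells with 38.1% and 27.5%, monocyte-like cells with 32% and 34% and macrophage-like cells with 28.1% and 34.4%. The fibrillar chains lay at the other end: 96% and 94.9% of Col1a1 UMIs and 96% and 95.5% of Col3a1 UMIs were in collagen-positive cells.

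**Figure D1:**
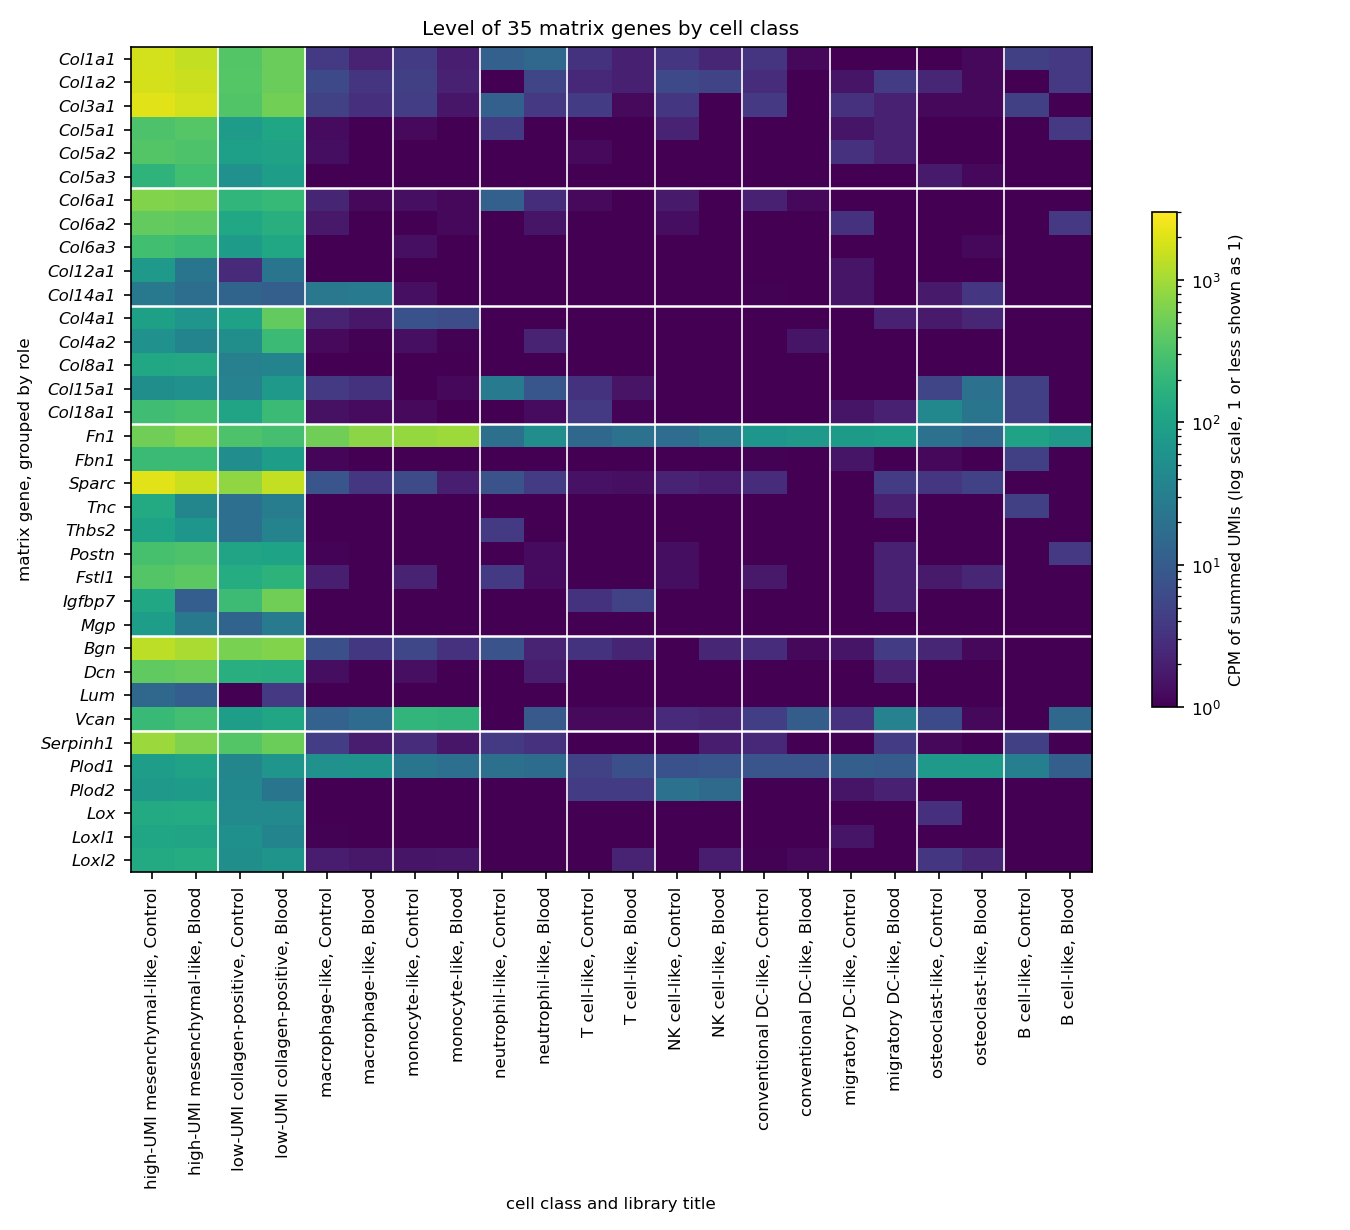
Level of the 35 genes (rows, grouped by role) in 11 cell classes of both libraries (columns), as CPM of summed UMIs on a log colour scale. The bright block at the left is the collagen-positive classes, and Fn1, Vcan, Plod1 and Col14a1 stay bright in macrophage-like or monocyte-like cells.

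The type I and III chains were the most abundant collagens. Because the 3′ libraries count 1 tag per captured transcript, levels were not divided by gene length, and capture can still differ between transcripts. In high-UMI mesenchymal-like cells Col1a1, a chain of type I collagen, was at 1725 CPM [1691 to 1759.7] and 1455 CPM [1414 to 1496]. Its partner chain Col1a2 was at 1803 and 1568 CPM and Col3a1, the chain of type III collagen, at 2099.7 and 1724 CPM. These sums were slightly lower in the library titled Blood, but the means of per-cell CPM were 2045 and 2085 for Col1a1, 1930.5 and 2146 for Col1a2 and 2537 and 2476 for Col3a1, so the order of both type I chains depends on how cells are weighted. The type V chains, which sit inside type I fibrils, were lower in level. Col5a1 was at 319 and 368 CPM, Col5a2 at 355 and 324 CPM and Col5a3 at 183 and 266 CPM, so Col5a3 alone of the fibrillar chains had a ratio of titled Blood to titled Control near the 1.5-fold threshold, 1.45 [1.33 to 1.59]. In the low-UMI class Col1a1 was at 356 CPM [314 to 401] and 479 CPM [422 to 541] and Col3a1 at 339.8 and 546 CPM, higher in the library titled Blood. A UMI of Col1a1 was found in 99% and 100% of high-UMI cells and 38.5% and 43.8% of low-UMI cells. The share was 5.96% and 3.03% in macrophage-like cells and 1.68% and 0.98% in T cell-like cells, a type that should lack the gene, whose median depths were 5007 and 4816 UMIs against 14510 and 13066 in macrophage-like cells. With every cell thinned to 1000 UMIs those shares became 54.5% and 60.4%, 23.8% and 28.2%, 0.462% and 0.312% and 0.288% and 0.333% in the same order of classes. At equal depth the macrophage-like share was above that of T cell-like cells in the library titled Control and below it in the library titled Blood. In both libraries each of these shares rests on few cells with a UMI. Thinning left out 34 and 50 low-UMI cells, 25 and 86 macrophage-like cells, 19 and 23 T cell-like cells and 0 high-UMI cells.

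The beaded type VI chains were found at 664 and 622 CPM for Col6a1, 439 and 418 CPM for Col6a2 and 268 and 236 CPM for Col6a3 in high-UMI cells. These chains form microfibrils around cells, and their ratios between libraries lay between 0.881 and 0.951. Col12a1, which decorates type I fibrils, was at 73.6 CPM [66.7 to 81] and 22.4 CPM [17.6 to 28], so it was 3.29 [2.57 to 4.26]-fold lower in the library titled Blood. Its UMIs lay in 22 of 101 cells and 10 of 53 cells, and the 5 cells with most of them held 83.5% and 93.4%. Col14a1 was at 25.7 and 18 CPM in high-UMI cells and 24.4 and 26.3 CPM in macrophage-like cells. No other collagen of the list came as close in macrophage-like cells to its level in high-UMI mesenchymal-like cells.

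Basement membrane and network collagens followed another pattern. Col4a1 and Col4a2, the chains of the common type IV collagen, were at 93.4 and 65 CPM and 58.1 and 36.5 CPM in high-UMI cells. In the low-UMI class Col4a1 was at 99.2 CPM [78 to 124] and 439.7 CPM [385 to 499.6] and Col4a2 at 51.6 and 234 CPM. They were thus lower in the library titled Blood in one class and higher in the other. The genes lie head to head on chromosome 8 of GRCm38, with annotated spans that share 22 bases. Col18a1, a chain that carries heparan sulfate and releases endostatin, was at 260.1 and 291 CPM in high-UMI cells and 107 and 238 CPM in low-UMI cells. The related Col15a1 was at 53.3 and 57.1 CPM and 34.4 and 74.8 CPM. Col8a1, a short-chain network collagen, was at 118 and 124 CPM in high-UMI cells, with a ratio of 1.05 [0.926 to 1.19].

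Among the glycoproteins Sparc, which codes for the collagen-binding protein osteonectin, was at 2087 CPM [2049 to 2125] and 1588 CPM [1546 to 1631] in high-UMI cells and 801 and 1420 CPM in low-UMI cells. Fn1, fibronectin, was at 526 and 658 CPM and 324 and 284 CPM. Fbn1, fibrillin, was at 236 and 236 CPM in high-UMI cells, with a ratio of 0.999 [0.914 to 1.09]. Postn, which codes for periostin and is a product of activated fibroblasts, was at 294 and 320.5 CPM, and Fstl1, a secreted relative of Sparc, at 354 and 405 CPM. All of these lay within 1.5-fold between the libraries in high-UMI cells. The remaining 4 glycoproteins did not. Tnc, tenascin C, a matrix protein of wounds and tumours, was at 135 CPM [126 to 145] and 39.1 CPM [32.8 to 46.4], 3.45 [2.87 to 4.18]-fold lower in the library titled Blood. Thbs2, a thrombospondin that restrains vessel growth, was at 104 and 66.2 CPM, 1.57 [1.34 to 1.84]-fold lower. Mgp, an inhibitor of calcification, was at 87.1 and 25.3 CPM, 3.44 [2.73 to 4.38]-fold lower. Igfbp7, a secreted binding protein known from vessels and fibroblasts, was at 118 CPM [109 to 127] and 10.9 CPM [7.67 to 15], 10.8 [7.79 to 15.5]-fold lower. In low-UMI cells Igfbp7 was at 242 and 528 CPM, higher in the library titled Blood.

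The small proteoglycans biglycan and decorin bind collagen fibrils. Bgn was at 1352 and 1102 CPM in high-UMI cells and Dcn at 428 and 460 CPM, with ratios of 0.815 [0.783 to 0.848] and 1.07 [1.01 to 1.15]. Lum, lumican, was low, at 14.4 and 10.9 CPM. In the low-UMI class Lum had 0 and 2 UMIs, which 3 UMIs of the class total limit to 3.97 and 5.61 CPM, so no ratio is given. Vcan was at 227 and 274 CPM in high-UMI cells and 196 and 183 CPM in monocyte-like cells.

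Of the genes that make and cross-link collagen, Serpinh1, the collagen chaperone, was at 907 CPM [882 to 932] and 630.1 CPM [604 to 657]. Its ratio was 0.695 [0.66 to 0.731], just inside the threshold. Plod1 was at 90 and 102 CPM and Plod2, the hydroxylase of the collagen telopeptides, at 74.1 and 83.9 CPM. The lysyl oxidases were at 135 and 136 CPM for Lox, 115 and 108 CPM for Loxl1 and 132 and 142 CPM for Loxl2. None of these enzymes differed 1.5-fold between the libraries in high-UMI cells.

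Between the libraries, high-UMI mesenchymal-like cells had 0 of 35 genes at least 1.5-fold higher and 6 at least 1.5-fold lower in the library titled Blood, counted on CPM with 5 CPM added. Across all 8718 genes measured in that class, 1.11% were higher and 1.84% lower by the same rule. The 6 genes were Col12a1, Col4a2, Tnc, Thbs2, Igfbp7 and Mgp. The counting interval of each left out 1, but so did that of all 160 genes called lower in this class, so it adds nothing to the call. Col4a2 turned slightly higher in the library titled Blood when both depth classes were merged at 1000 UMIs or more. The median log2 ratio of the 35 genes was -0.09, against -0.0037 over all measured genes, and 0.087, against 0.006 over all genes, with means of per-cell CPM. For Igfbp7, Tnc, Mgp and Col12a1 most UMIs lay in few cells. Igfbp7 UMIs were in 12 of 101 cells and 3 of 53 cells, and the 5 cells richest in it held 85.8% and 100% of them. For Tnc the 5 richest cells held 85% and 68.4% and for Mgp 86.7% and 73.3%. Thbs2 and Col4a2 were spread more widely: Thbs2 had UMIs in 80 of 101 cells and 37 of 53 cells, with 49.9% and 43.6% in 5 cells, and Col4a2 in 63 of 101 cells and 29 of 53 cells, with 30.4% and 52.4%. Macrophage marker levels, higher in the library titled Blood in this class as given above, moved with these ratios. Without the macrophage-marker subcluster 5 genes were lower, all of the 6 but Thbs2, and 1 was higher, Col5a3. Of all measured genes 2.37% were lower and 1.35% higher in that run. Epithelial markers summed to 50.1 and 4.41 CPM in the class, and their part in the ratios was not tested.

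In the low-UMI class 34 of the 35 genes were measured, 13 were at least 1.5-fold higher in the library titled Blood and 1, Plod2, was lower. Among all 8366 genes measured there, 10.2% were higher and 12.2% lower. For 10 of the 13 the counting interval left out 1, which held for 3.19% of all measured genes: Col3a1, Col5a3, Col12a1, Col4a1, Col4a2, Col15a1, Col18a1, Fbn1, Sparc and Igfbp7. The interval of Plod2 did not leave out 1, as that of 3.73% of all measured genes did on the lower side. The median log2 ratio was 0.44, against -0.02 over all measured genes. The largest by ratio among those with over 100 UMIs were Col4a2, 4.53 [3.14 to 6.67], and Col4a1, 4.43 [3.4 to 5.83]. Of the UMIs of Col4a1, 86.7% and 93.6% lay in 5 cells, and of those of Igfbp7 94.5% and 96.1%. Sparc and Col3a1 were less concentrated, with 27.9% and 51.9% and with 37.4% and 28.1% in 5 cells. Of the 13 genes that were higher, Igfbp7, Col12a1, Col15a1 and Col5a3 turned to the other direction under 1 or 2 of the alternatives in the closing section. The number higher was 19 of 33 measured when the matrix genes were also used to cluster, against 8.7% of all measured genes. It was 8 of 34 when each subcluster had equal weight, against 14.6%. Without the Cxcl14-led subcluster, which held 17 and 31 cells, it was 7 of 32, against 10%. The part of the subcluster mix in the count was not tested. The summed endothelial markers were at 446 and 717 CPM in this class and the macrophage markers at 2243 and 3970 CPM. Epithelial markers were at 230.1 and 20.6 CPM and pericyte markers at 27.8 and 9.35 CPM, and the part of these 4 lists in the ratios was not tested.

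**Figure D2:**
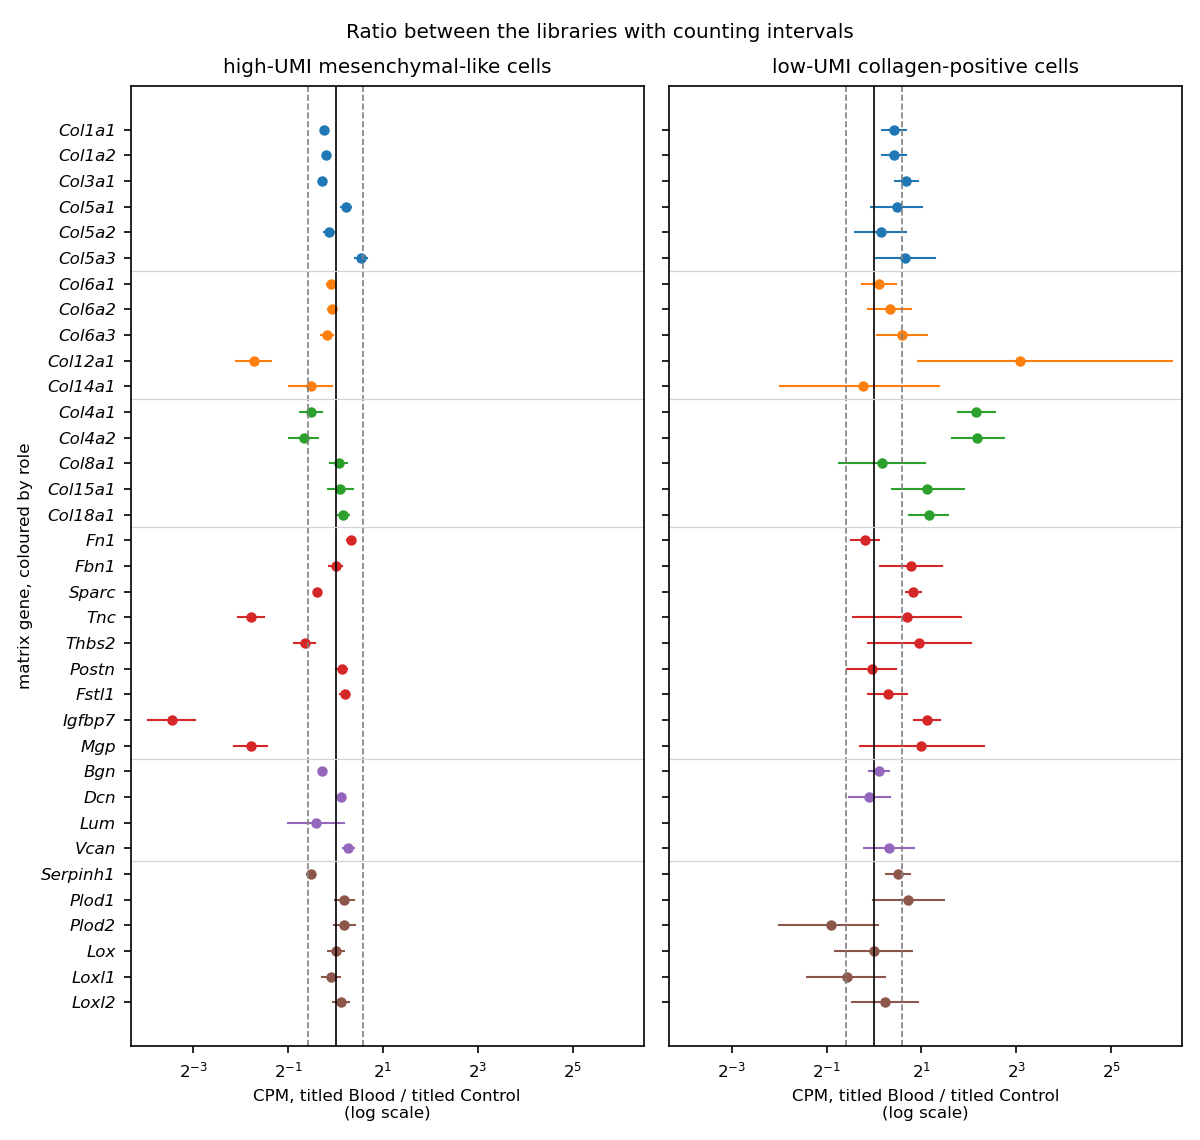
Ratio of CPM in the library titled Blood to that in the library titled Control for each gene (rows, coloured by role), on a log axis, with its counting interval as a line; dashed lines mark 1.5-fold in each direction. In high-UMI cells (left) most points lie near 1 and Igfbp7, Col12a1, Tnc and Mgp lie far to the left; in low-UMI cells (right) Col4a1 and Col4a2 lie far to the right and intervals are wide.

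The high-UMI class divided into 6 subclusters, each called by its leading gene. The 35 genes were left out of that step too, so the subclusters were not drawn by them, but clustering and comparison used the same cells and the differences are descriptions without a test. The Cxcl14-led subcluster, 24 and 12 cells, was led by Cxcl14, C3, Mmp3 and Cilp, genes of fibroblasts, and had Pdgfra at 208 CPM. Its cells devoted 3.88% and 3.87% of their UMIs to the 35 genes. The corresponding shares were 1.12% and 1.12% in the Ube2c-led subcluster of dividing cells, 1.05% and 0.912% in the Mt1-led, 0.706% and 0.746% in the Cxcl10-led and 0.553% and 0.459% in the Tmem267-led subcluster. The C1qa-led subcluster, 12 and 8 cells with macrophage markers summed to 9644 CPM, stood at 2.05% and 1.14% and was set aside here. Mki67, a gene of dividing cells, was at 27.3 CPM in the Cxcl14-led and 360 CPM in the Ube2c-led subcluster. It was at 264 CPM in the Cxcl10-led, 196 CPM in the Tmem267-led, 134 CPM in the C1qa-led and 52.5 CPM in the Mt1-led subcluster. The part of cell division in the differences between subclusters was not tested.

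Nearly every gene was higher in the Cxcl14-led cells than in the other 4 subclusters summed. In the library titled Control 33 of 35 were at least 1.5-fold higher and 0 lower, against 16.7% higher and 24.3% lower among all measured genes. In the library titled Blood 34 of 35 were higher and 0 lower, against 18.3% and 20.6%. The median log2 difference of the 35 genes was 1.80 and 2.09, against -0.11 and -0.02 over all measured genes. Col1a1 was at 5352 against 607 CPM in the library titled Control, 8.82-fold [8.4 to 9.26]. In the library titled Blood it was at 5580.2 against 547 CPM, 10.2-fold [9.56 to 10.9]. Col3a1 showed the same order, 10.6-fold [10.1 to 11.1] and 11.1-fold [10.4 to 11.8]. Postn was at 972 against 77.5 CPM in the library titled Control and 1212 against 139.6 CPM in the library titled Blood.

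Several genes were low outside the Cxcl14-led cells. Igfbp7 was at 488 against 7.52 CPM in the library titled Control and 56.1 against 1.68 CPM in the library titled Blood. In the C1qa-led cells, which were set aside, it was at 168 and 0 CPM. Col15a1 was 35.9-fold [23.1 to 58.5] higher and 74.6-fold [39.7 to 158] higher, and Col12a1 39.1-fold [25.5 to 62.9] and 14.7-fold [8.34 to 27.4]. Over the whole high-UMI class 5 cells held 65.2% and 81.4% of Col15a1 UMIs and 83.5% and 93.4% of Col12a1 UMIs, so these folds rest on few cells. Lum was at 67 against 1.3 CPM in the library titled Control. In the library titled Blood it was at 57.8 CPM against 0 UMIs in the others, at least 46-fold higher when the others are set to 3 UMIs over the group. Other genes differed less between the Cxcl14-led cells and the other 4 subclusters summed. Bgn was only 2.1-fold [2 to 2.21] and 2.06-fold [1.92 to 2.22] higher, Serpinh1 1.85-fold [1.74 to 1.97] and 2.04-fold [1.86 to 2.25]. Plod2 was under 1.5-fold by the call rule in both libraries, 1.15-fold [0.895 to 1.47] and 1.5-fold [1.12 to 2]. Col18a1 was so in the library titled Control alone, 1.33-fold [1.18 to 1.5], and was 3.22-fold [2.81 to 3.69] higher in the library titled Blood. By these folds Col1a1 and Col3a1 differed more between the subclusters than the chaperone and the telopeptide hydroxylase.

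**Figure D3:**
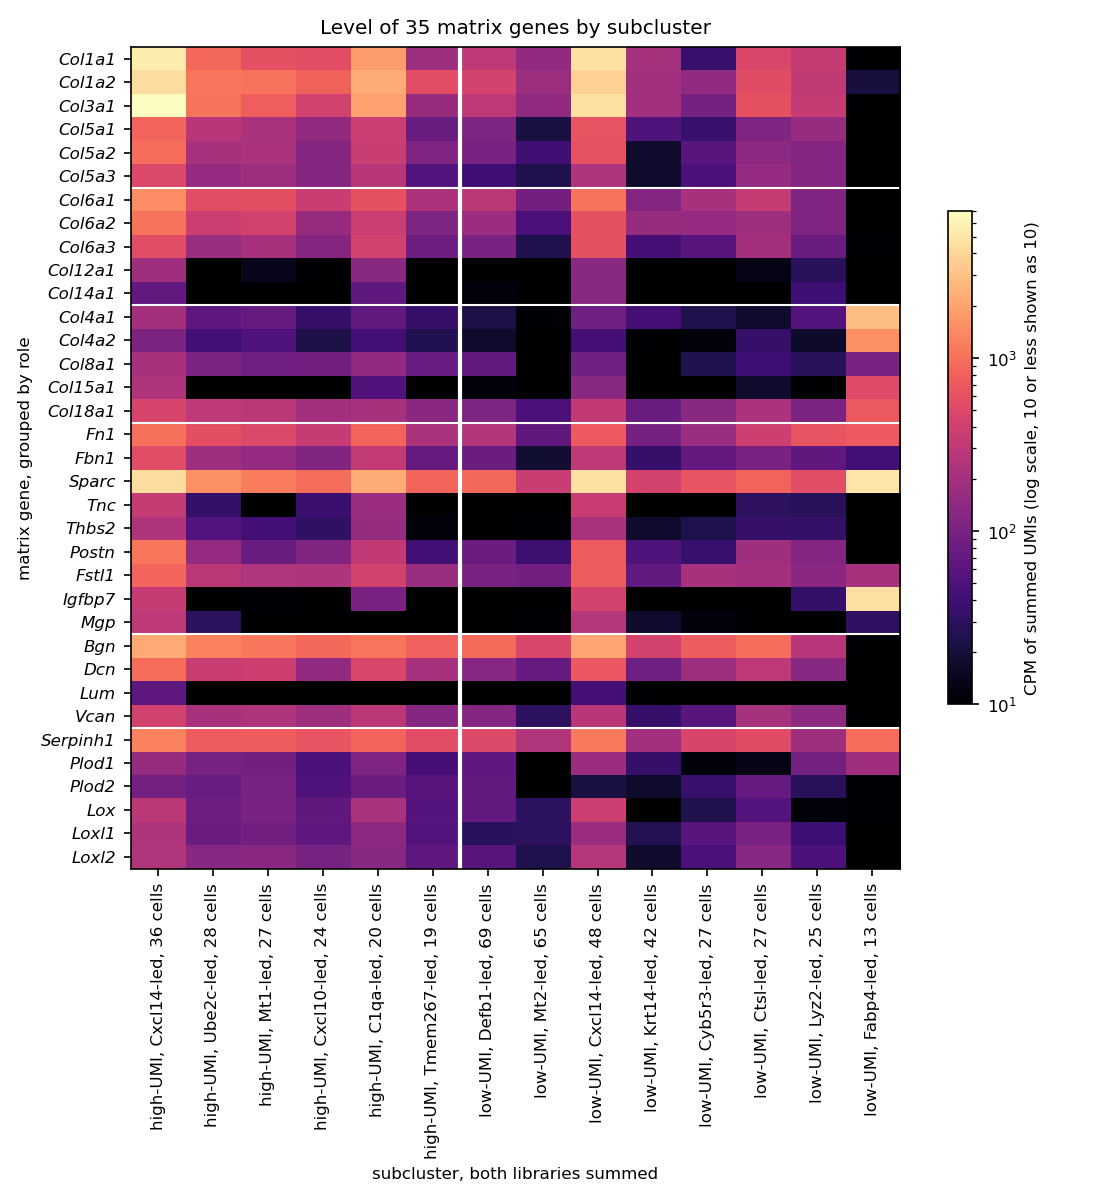
Level of the 35 genes (rows, grouped by role) in the 6 high-UMI and 8 low-UMI subclusters (columns, both libraries summed), as CPM on a log colour scale. The Cxcl14-led columns are brightest in both classes, and the Fabp4-led column is bright for Col4a1, Col4a2, Igfbp7 and Sparc and dark for the fibrillar chains.

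Within the Cxcl14-led high-UMI cells the type I and III chains hardly differed between the libraries, with ratios of titled Blood to titled Control of 1.04 [0.998 to 1.09] for Col1a1 and 0.922 [0.887 to 0.958] for Col3a1. There 6 genes were at least 1.5-fold higher in the library titled Blood (Col5a1, Col5a3, Col15a1, Col18a1, Vcan and Loxl2) and 4 were lower (Col12a1, Tnc, Igfbp7 and Mgp), against 13.1% and 11.1% of all measured genes. Both counts are near those shares. Epithelial markers were at 241 and 3.4 CPM and Mki67 at 13.2 and 52.7 CPM in these cells, and their part in the ratios was not tested. Col5a3, which had the highest ratio, was at 336 and 787 CPM, with a ratio of 2.34 [2.04 to 2.7]. Tnc was at 481 and 88.4 CPM, and its ratio was 0.184 [0.135 to 0.245]. In the other 4 subclusters 30 of the genes were measured. Tnc, Postn and Lox were higher there in the library titled Blood and Col4a2 lower, against 1.90% higher and 1.94% lower among all measured genes. Tnc was at 15.8 and 31.9 CPM in those cells, with a ratio of 2.01 [1.42 to 2.87]. The summed Tnc ratio thus ran in opposite directions in the Cxcl14-led cells and in the rest. Over the whole high-UMI class 5 cells held 85% and 68.4% of the Tnc UMIs, so these ratios can rest on few cells. The spread of Tnc within each subcluster was not examined. Col12a1, Col14a1, Col15a1, Igfbp7 and Lum were too low in the rest to be measured.

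Promoter sequences are shown for 4 genes that stood out in these comparisons and for which the 250 bases before the start held no annotated exon: Col3a1 and Postn, high in Cxcl14-led cells, Col5a1, a fibrillar chain of lower level, and Igfbp7, shared by Cxcl14-led and endothelial-marker cells. They come from RefSeq on GRCm38.p6, whose table matched 23 of the 35 genes. The window of Col3a1 lies at chr1:45311288-45311537, that of Postn at chr3:54360857-54361106 and that of Col5a1 at chr2:27886175-27886424, all on the plus strand, and that of Igfbp7 at chr5:77408046-77408295 on the minus strand. Each reads 5′ to 3′ along its gene, and capitals mark TATAAA, the core of a TATA box, or GGGCGG, the core of a GC box, on either strand, where the reverse strand match reads CCGCCC.
Col3a1: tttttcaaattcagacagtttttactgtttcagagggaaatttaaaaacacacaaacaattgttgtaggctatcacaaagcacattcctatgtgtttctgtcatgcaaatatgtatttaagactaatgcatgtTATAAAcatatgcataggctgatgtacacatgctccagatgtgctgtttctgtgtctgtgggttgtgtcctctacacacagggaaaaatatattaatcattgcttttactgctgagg
Postn: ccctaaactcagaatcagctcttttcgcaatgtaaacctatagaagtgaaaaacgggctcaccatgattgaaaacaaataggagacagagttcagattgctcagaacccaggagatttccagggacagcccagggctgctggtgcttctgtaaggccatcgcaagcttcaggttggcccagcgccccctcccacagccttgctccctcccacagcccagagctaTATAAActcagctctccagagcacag
Col5a1: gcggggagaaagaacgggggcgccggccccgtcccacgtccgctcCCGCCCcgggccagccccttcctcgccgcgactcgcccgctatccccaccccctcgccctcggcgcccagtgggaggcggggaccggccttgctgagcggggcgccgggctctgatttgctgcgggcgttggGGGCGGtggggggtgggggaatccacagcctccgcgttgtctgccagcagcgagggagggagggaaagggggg
Igfbp7: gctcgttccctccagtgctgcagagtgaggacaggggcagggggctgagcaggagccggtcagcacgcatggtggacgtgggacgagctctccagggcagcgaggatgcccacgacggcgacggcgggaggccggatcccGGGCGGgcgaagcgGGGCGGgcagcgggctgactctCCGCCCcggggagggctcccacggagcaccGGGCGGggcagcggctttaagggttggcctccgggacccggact
The windows fall into a pair with TATAAA and a pair rich in G and C. Col3a1 had 35.2% G and C and TATAAA 117 bases before the start, and Postn 52% with TATAAA 26 bases before it. Col5a1 had 76.4% with 2 GGGCGG and Igfbp7 74% with 4. The 23 matched genes had 27 windows, of which 6 held TATAAA, 17 GGGCGG and 7 CCAAT. Of all 32851 windows 12.4%, 32.7% and 33.8% did. Counting a gene when any of its windows matched, TATAAA was found in 5 of 23 (21.7%), GGGCGG in 15 (65.2%) and CCAAT in 7 (30.4%), a unit unlike that of all windows. Several of the 27 windows do not lie just before the annotated gene start. That of Fbn1 is 1555 bases from it, and those of Col4a1 and Col4a2 lie wholly in annotated exons. None of the windows shown holds CCAAT. The 3 motifs were searched on both strands and none of them contains another. A match describes letters and not binding.

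The low-UMI class divided into 8 subclusters, and the 2 with the largest shares of UMIs in the 35 genes were a Cxcl14-led and a Fabp4-led one. The Cxcl14-led one, 17 and 31 cells with a median of 847 UMIs, devoted 3.26% and 3.06% of its UMIs to the 35 genes. It was set against the Cxcl14-led high-UMI cells. Col1a1 was at 4747 against 5434 CPM, Sparc at 4682 against 4461 CPM and Igfbp7 at 432 against 334 CPM, both libraries summed. Of the 35 genes 1, Col14a1, was at least 1.5-fold higher in the low-UMI cells and 10 were lower, against 27.4% and 30.7% of all measured genes. The median log2 difference was -0.46, against 0.02 over all measured genes. At this depth many of these values rest on few UMIs: Col14a1 had 6 in the low-UMI cells and Col4a2 had 2.

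The other was the Fabp4-led subcluster, 9 and 4 cells, led by Fabp4, Ctla2a, Gpihbp1 and Cd36. It carried endothelial markers, with Pecam1 at 946 CPM, Cdh5 at 1104 CPM and all endothelial markers together at 6918 CPM, against at most 184 CPM in the other low-UMI subclusters. Col4a1 was at 1761 and 3606 CPM in the libraries titled Control and Blood, and summed over both it was 33.7-fold [13 to 125] higher than in the Cxcl14-led low-UMI cells. Col4a2 was 35.1-fold [9.54 to 292] higher and Igfbp7, at 4921 and 4432 CPM, 10.7-fold [6.84 to 17.7] higher. Col15a1 and Col18a1, collagens of the outer basement membrane, were 4.06-fold [1.74 to 11.6] and 2.11-fold [1.19 to 3.99] higher. Of 30 genes measured these 5 were higher, against 37.5% of all genes measured in that comparison, and 20 were lower, against 21.2%. No UMI of Col1a1, Col3a1, Bgn or Dcn was found, which puts Col1a1 at least 150.5-fold lower, Col3a1 at least 146-fold lower and Bgn at least 65.7-fold lower when 3 UMIs over the group are taken as the floor. In all, 14 of the genes measured were at 0, and with those at their bound the median fold over the 30 genes was 0.122. Sparc did not separate the subclusters, at 4942 against 4682 CPM, nor did Fn1, at 715 against 712 CPM, or Serpinh1, at 936 against 1122 CPM. These values rest on 13 cells in all.

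**Figure D4:**
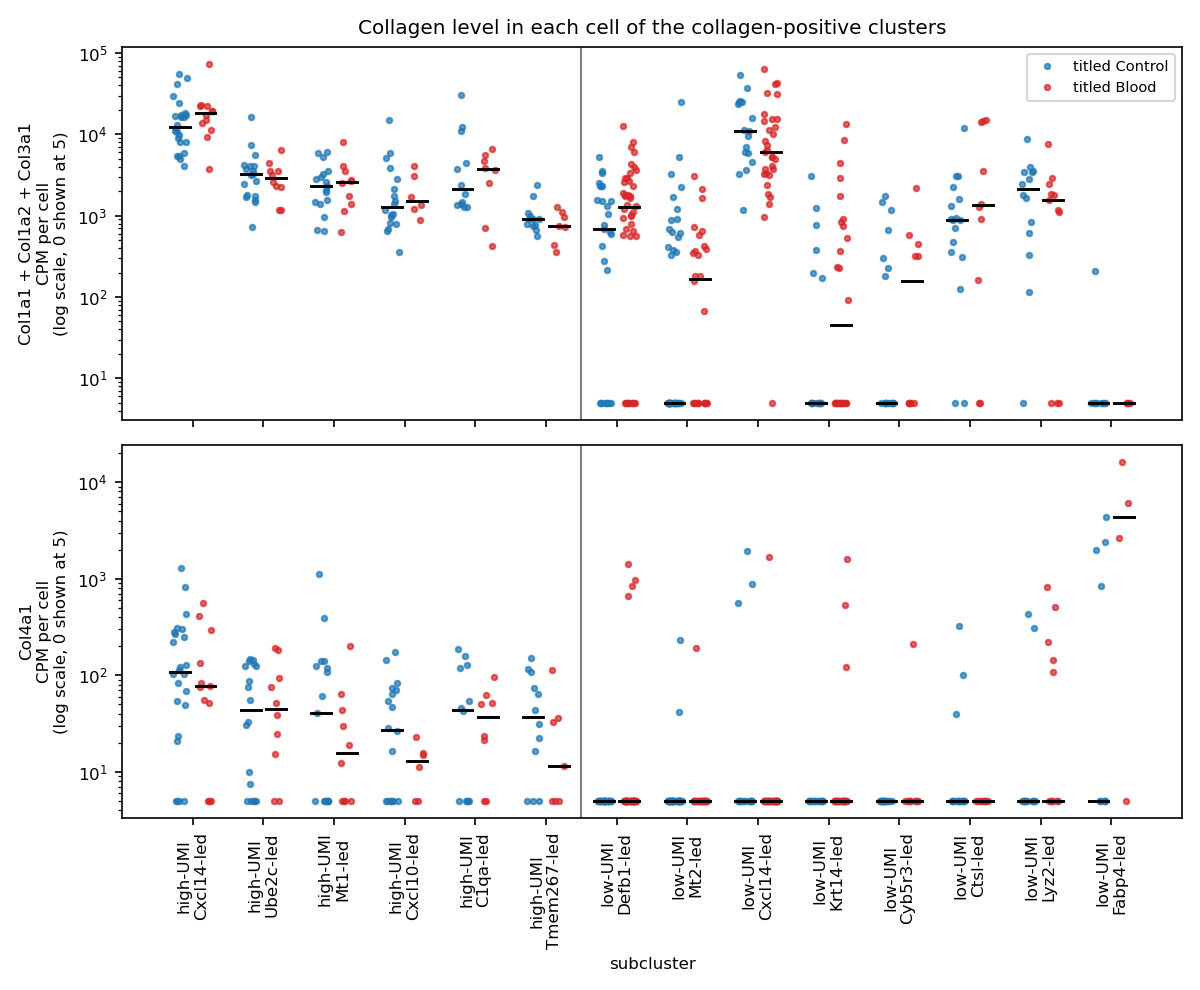
CPM of each cell (points; log axis, cells with no UMI drawn at 5) for Col1a1, Col1a2 and Col3a1 together (top) and Col4a1 (bottom), by subcluster and library, with the median as a bar. The Cxcl14-led cells are highest for the fibrillar chains in both classes, and Col4a1 is highest in a few Fabp4-led cells.

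The Col4a1 and Igfbp7 UMIs of the low-UMI class came largely from those few cells. The Fabp4-led cells held 63 of 75 Col4a1 UMIs in the library titled Control and 214 of 235 in the library titled Blood. They held 176 of 183 and 263 of 282 Igfbp7 UMIs. Without them the class had 12 genes at least 1.5-fold higher and 2 lower, against 8.31% and 13.6% of all measured genes. On the log2 scale with 5 CPM added, the ratio of Col4a1 went from 2.09 to 1.18 without them, that of Col4a2 from 2.08 to 0.69 and that of Sparc from 0.82 to 0.38, under the threshold, while that of Igfbp7 went from 1.11 to 1.61. By the counts above few Col4a1 and Igfbp7 UMIs lay outside the Fabp4-led cells, so both ratios without those cells rest on few UMIs. The 9 Fabp4-led cells of the library titled Control had a median of 1025 UMIs and the 4 of the library titled Blood a median of 6053.5, so depth per cell moved with the difference, and its part in the ratio was not tested. The summed Col4a1 level of the Fabp4-led cells was higher in the library titled Blood, with counting intervals of 1353 to 2254 CPM and 3139 to 4123 CPM. The 4 cells of that library held 59342 UMIs in all, so with their median given above the deepest cell held most of them. These intervals cover no spread between cells, so a difference between the libraries cannot be told apart from one between single cells. For Igfbp7 the intervals were 4220.5 to 5704 CPM and 3912 to 5001 CPM.

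The remaining low-UMI subclusters devoted smaller shares of their UMIs to the 35 genes. The Ctsl-led one, 17 and 10 cells, devoted 0.706% and 0.757% of its UMIs to the 35 genes, and the Defb1-led one, 27 and 42 cells with epithelial genes such as Krt19 and Krt18 among its leading genes, 0.400% and 0.851%. Epithelial markers in the Defb1-led cells were at 1314 and 17.4 CPM, so they were high in the library titled Control alone. Col1a1, Col1a2 and Col3a1 together took 0.159 and 0.166 percent of UMIs in the Ctsl-led cells, more than the 0.00559 and 0 percent in the Fabp4-led cells. In the Lyz2-led subcluster, 14 and 11 cells with macrophage markers, the share was 0.387% and 0.597%. In the Mt2-led, Krt14-led and Cyb5r3-led subclusters it ranged from 0.163% to 0.387%. Over single cells of the low-UMI class, 62 of 156 and 49 of 160 had no UMI of Col1a1, Col1a2 or Col3a1. In the high-UMI class every cell had at least 1, and the sum of the 3 chains ran from 362 to 55180.3 CPM with a median of 2815 CPM in the library titled Control and from 356 to 73375 CPM with a median of 3097 CPM in the library titled Blood.

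In macrophage-like cells 4 of the 35 genes reached 10 CPM in either library. Fn1 was at 528 CPM [523 to 533] and 754 CPM [747 to 759.8], Plod1 at 56.9 and 61.6 CPM, Col14a1 at 24.4 and 26.3 CPM and Vcan at 12.5 and 16.5 CPM. None was 1.5-fold apart, against 0.540% higher and 0.912% lower among 7784 measured genes. The Fn1 ratio was 1.43 [1.41 to 1.44], below the threshold with all macrophage-like cells summed and past it under several alternatives given in the closing section. Fn1 was found in 69.9% and 77.4% of these cells.

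Free RNA from broken cells can put collagen UMIs into any droplet. RNA from 1 source keeps its genes in 1 ratio, so each gene was set against the sum of Col1a1, Col1a2 and Col3a1 of the same cells. In macrophage-like cells 9 of the 35 genes were at least 3 times as high per fibrillar collagen UMI as in the collagen-positive cells of the same library, in both libraries: Col14a1, Col4a1, Col4a2, Col15a1, Fn1, Vcan, Plod1, Loxl1 and Loxl2. Of all 14593 genes that could be set this way 90.6% passed, so a value above the line is usual among genes at large. Fn1 stood at 363 and 620.2 times the ratio of the collagen-positive cells, Col14a1 348 and 772 times and Plod1 234 and 318 times. Col15a1 stood at 26.2 and 27.1 times and Col4a1 at 7.84 and 7.34 times it, at levels of only 3.89 and 3.23 CPM and 2.14 and 1.7 CPM. Col5a2, Thbs2, Postn and Dcn, in contrast, stood at 1.42 and 0.951, 1.02 and 0.964, 1.37 and 1.3 and 1.17 and 0.971 times, near the ratio of the collagen-positive cells. Col1a1 in macrophage-like cells was at 3.95 and 2.23 CPM and in T cell-like cells at 3.2 and 2.01 CPM.

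**Figure D5:**
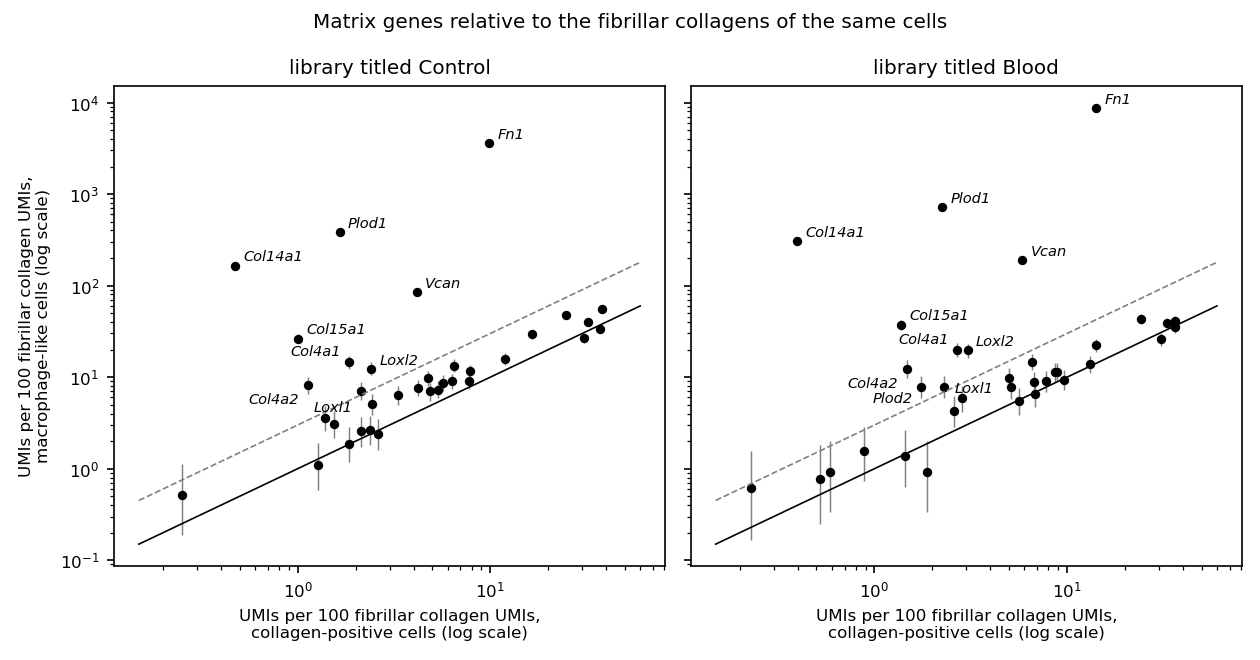
UMIs of each gene per 100 UMIs of Col1a1, Col1a2 and Col3a1 in macrophage-like cells (vertical) against the same in collagen-positive cells (horizontal), both axes log, with counting intervals; the solid line marks equal ratios and the dashed line 3 times as high. Most genes lie close to the solid line, and Fn1, Plod1, Col14a1, Vcan and Col15a1 lie far above the dashed line in both libraries.

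Macrophage-like clusters differed in these genes. Fn1 was at 1288 and 1085 CPM in the cluster led by Mmp12 and Hmox1, 523 and 1255 cells, and at 398 and 679 CPM in the cluster led by Ccl8 and Fcrls, 1012 and 1275 cells. In the cluster led by Retnla and Ednrb, 277 and 449 cells, it was at 1162 and 587 CPM. It was higher in the library titled Blood in the Ccl8-led cluster and lower in the Retnla-led one, and the Mmp12-led cluster, where it was also lower, held a larger part of the macrophage-like cells of that library. The sum over macrophage-like cells thus mixes levels with cluster sizes. Col14a1 was highest in the Ccl8-led cluster and the dividing Mki67-led cluster, 36.8 and 39.2 CPM and 35.5 and 39.9 CPM, and was at 4 and 2.78 CPM in the Retnla-led cluster. Vcan ran the other way, at 106 and 90.8 CPM in the Retnla-led cluster and 3.49 and 2.63 CPM in the Ccl8-led cluster. In monocyte-like cells Vcan was at 149.7 and 188 CPM in the Chil3-led and 369.8 and 157 CPM in the Hp-led cluster, and Col14a1 at 1.39 and 0.747 CPM. Col14a1 was thus low where Vcan was high among these clusters.

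Single genes of the list were also read in other immune classes. In monocyte-like cells Fn1 was at 854 and 931 CPM and Plod1 at 22.2 and 18.4 CPM. In osteoclast-like cells, 65 and 50 cells led by Ctsk, Mmp9 and Acp5, Plod1 was at 75.3 and 74.4 CPM and Col18a1 at 42.4 and 22.8 CPM. In NK cell-like cells Plod2 was at 20 and 16.2 CPM, above its 0.528 and 0.678 CPM in macrophage-like cells. Igfbp7 was at 3.2 and 4.8 CPM in T cell-like cells. In neutrophil-like cells Fn1 was at 19.2 and 52.7 CPM, from 5 and 169 UMIs, so the first level rests on few UMIs. Set against fibrillar collagen UMIs as above, 0 genes of the list reached 3 times the ratio of collagen-positive cells there in both libraries. The source of these Fn1 UMIs was not tested.

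The neighbouring matrix genes were taken from 8 further lists of 118 genes. In high-UMI cells 0 of the 19 measured genes of collagen processing were 1.5-fold higher and 1 was lower, Adamts2, which cleaves the N-terminal propeptide, at 24.8 and 13.2 CPM. Ppib, a prolyl isomerase of collagen folding, led that list at 714 and 622 CPM. Of 14 measured elastic fibre genes 4 were lower and 0 higher in the library titled Blood. Mfap5, a microfibril protein, was at 160 and 47.4 CPM, Mfap4 at 20.7 and 1.77 CPM, Fbln1, a fibulin, at 18.7 and 4.71 CPM and Mfap2 at 52.6 and 27.4 CPM. Of 8 measured basement membrane genes 0 were apart, with Hspg2, perlecan, at 285 and 293 CPM. Among 6 measured proteoglycan genes Omd and Ogn were higher and Prelp lower, with Ogn, mimecan, at 33.9 and 58.9 CPM. Of 12 matricellular genes 1 was lower, Spon1, at 12.1 and 0.589 CPM, and Spp1, osteopontin, was the most abundant at 2109 and 1937 CPM. Of 9 receptor genes 2 were higher, Mrc1 at 23.7 and 39.4 CPM and Lair1 at 9.8 and 17.7 CPM, both far higher in macrophage-like cells, at 524 and 683 CPM and 264 and 244 CPM. Mrc1 is among the macrophage markers used to name the classes, so its higher level in macrophage-like cells is partly built in. It is also part of the summed macrophage markers given above for high-UMI cells. Of the 4 other collagen chains measured and the 2 cross-linking genes measured, 0 were apart, with Col16a1 at 109 and 89.5 CPM and Loxl3 at 99.4 and 96.5 CPM. The share of all genes called in this class is the 1.11% and 1.84% given above.

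In low-UMI cells the basement membrane list had 4 of 8 measured genes higher and 1 lower in the library titled Blood, where 10.2% and 12.2% of all measured genes were so. Nid2, a nidogen, was at 2.64 and 52.4 CPM, Lamc1, a laminin chain, at 31.7 and 84.2 CPM and Lamb1 at 51.6 and 122 CPM. The first Nid2 value lies below the 3.97 CPM that 3 UMIs make in the library titled Control. How these genes were spread over cells, and their ratios without the Fabp4-led cells, were not examined. The elastic fibre list had 4 of 11 higher and 1 lower, with Mfap5 at 7.93 and 37.4 CPM, the reverse of its order in high-UMI cells. In this class 3 UMIs make 3.97 and 5.61 CPM, so these Mfap5 levels rest on few UMIs, and their spread over cells was not examined. Of 16 measured processing genes 0 were higher and 1, P4ha2, a prolyl hydroxylase subunit, was lower. In macrophage-like cells Tgfbi, a matrix protein induced by TGF-beta, was at 1809 and 1934 CPM and Tgm2, a transglutaminase, at 329.8 and 340.1 CPM, and Spon1 was the only one of the 22 measured genes of the further lists to be 1.5-fold apart, at 18.5 and 5.41 CPM, against 0.540% higher and 0.912% lower among all genes.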

How the data were processed

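The values are whole-number counts of UMIs per gene and cell barcode, deposited by the authors as 2 filtered matrices. Per the labels' protocols, tumours were digested with collagenase and DNase, red cells were lysed and 10x 3′ libraries were made. Per the submitters' processing notes, Cell Ranger 3.1.0 and mm10 were used. The matrices hold 115272096 UMIs in the library titled Control and 115066023 in the library titled Blood. Barcodes with at least 500 UMIs, at least 300 genes and at most 20% mitochondrial UMIs were kept. Doublets called by Scrublet were removed, 157 and 301, which is 1.75% and 2.59% against 7.58% and 9.65% expected from loading. Cells were clustered with scanpy 1.11.5 and Leiden at resolution 1 on 2000 variable genes, 30 components and 15 neighbours, with the matrix genes left out. Counts were summed per class and library and given as CPM. A gene was measured with at least 10 CPM in either sum and at least 10 UMIs in all, and called at 1.5-fold with 5 CPM added to each value. Levels have exact Poisson, shares Clopper-Pearson and ratios conditional binomial 95% intervals, which cover counting error only. With 1 library per group no test across animals was possible. The analysis was tested on simulated data. Those counts were drawn from class sums with no spread between cells, so they do not show how that spread affects the calls. The named genes are all 35, plus, in each further list, those with the highest levels and the highest and lowest ratios. The 35 genes and the further lists were chosen with earlier results of these data known. The subcluster resolution, the limits for naming clusters and the comparisons without single subclusters were chosen after seeing the data. Ratios under other filters, groupings and weights are in the closing section.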

Additional observations from a re-analysis of the deposited data

How the results depend on the processing

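No paired analysis was possible because each group has 1 library, and for the same reason no replicate could be left out. Ratios past 1.5-fold changed direction in 6 cases, and the cause was not tested. With smaller ratios included, 18 of 35 genes changed sign under at least 1 alternative in high-UMI cells, 17 of 34 in low-UMI and 2 of 4 in macrophage-like cells, among them Col1a1 and Col1a2 in high-UMI cells with per-cell means, where the median log2 ratio was 0.087. In log2, high-UMI Col4a2 was 0.13 with both depth classes merged at 1000 UMIs or more. In low-UMI cells Col12a1 was -0.018 and Igfbp7 -0.19 as means of per-cell CPM, Igfbp7 -0.12 without the 5 deepest cells of each library, Col15a1 -0.15 with equal subcluster weights and Col5a3 -0.055 without the macrophage-marker subclusters. In high-UMI cells 4 to 7 genes were lower under all alternatives run, against 1.6% to 2.97% of all measured genes. There 1 instead of 0 was higher with per-cell means, without the 5 deepest cells, with equal weights or without the macrophage-marker subcluster. Of all measured genes 1.35% to 2.92% were higher under those settings. In low-UMI cells 2 instead of 1 were lower at Leiden resolution 2, with doublets kept, with per-cell means, without the 5 deepest cells, and without the macrophage-marker, endothelial-marker or Cxcl14-led subclusters. Of all measured genes 9.73% to 19.4% were lower under those settings. In that class 19 of 33 were higher with all variable genes used to cluster, 15 with 1 CPM added, 8 higher and 9 apart with equal weights, and 7 higher and 9 apart without the Cxcl14-led subcluster. Of all measured genes 8.7%, 13.6%, 14.6% and 10% were higher in the same order. In macrophage-like cells 1 gene was higher, and so apart, with all variable genes, at Leiden resolution 2, with doublets kept, at 1000 UMIs or more and with per-cell means, and 1 was lower, and so apart, with no minimum CPM. Of all measured genes 0.385% to 1.2% were higher under the former settings and 0.541% lower under the latter. The share of the genes' UMIs in collagen-positive cells was 58.2% and 37.5% with doublets kept, and 38.0% in the library titled Blood at 1000 UMIs or more. Above the free-RNA ratio were 12 genes at 2 times and 8 at 5 times. The 53 to 160 cells per collagen-positive class and library, and the low depth of the low-UMI cells, limit every ratio there.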
